A study of Saccharomyces cerevisiae with 76 samples.

Results

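Of the 948 Abf1 peaks that were called before depletion, 269 (28.4%) had their summit between tandem genes, that is, in a gap where the nearest protein-coding open reading frame (ORF) on the left and the nearest on the right are transcribed in the same direction. In such a gap the upstream gene ends with its stop codon on one side and the downstream gene begins with its start codon on the other. The members were found by position alone. A summit had to lie outside every protein-coding ORF and every tRNA gene of the sacCer3 annotation, and its signal was not used. The other peaks lay between divergent genes (275), inside tRNA genes (231), inside ORFs (138), between convergent genes (23) or beyond the last ORF of a chromosome (12).

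The peaks came from Saccharomyces cerevisiae strain BY4742 (MATalpha) with the genotype tor1-1, fpr1del, RPL13A-FKBP12-NAT and Abf1-FRB-yEGFP-3V5-hphMX4, an anchor-away strain in which rapamycin would tether Abf1 to a ribosomal protein and carry it out of the nucleus. For the samples used here no depletion was induced. The cells had received the solvent DMSO for 90 min (t = 0), and Abf1 was precipitated with an antibody against the V5 tag. The authors called the peaks once, on 3 immunoprecipitations together against their 3 inputs, out of 76 samples in 26 groups that the series lists. The tagged strain is described as growing somewhat more slowly than its untagged parent. Each peak therefore has 1 pooled value and no spread between replicates, no test over samples could be made, and peaks are not replicates of a condition. All intervals below are 95% intervals, and none covers the spread between replicates. Wilson intervals for shares and order-statistic intervals for medians treat the peaks or genes as independent draws and serve as description only. Exact Poisson intervals for the fragments at a summit cover counting error alone and hold the background fixed.

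Abf1 is an essential general regulatory factor of budding yeast. It binds a bipartite motif, keeps promoters free of nucleosomes, and is known from promoters of ribosomal protein genes and many other housekeeping genes, from origins of replication and from silencers. At tandem genes a bound general regulatory factor sits between the 3′ end of one transcription unit and the promoter of the next, and such factors can stop RNA polymerase II that reads through from the upstream gene.

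The motifs of the 12 tandem peaks with the highest signal are shown because they carry the sequence differences described further on. Each line gives the downstream gene, the sacCer3 position and strand of the motif, and 29 bases from 5′ to 3′ with the 13 positions of the published Abf1 consensus in capitals. The middle capital is position 0, and position −8 is the next to last lower-case letter before the capitals, position 7 of the printed sequence.
ECM25 (chrX:54244-54272, plus strand): gcacatgtATCACTATTAACGgcgtacgt
RPS28B (chrXII:672942-672970, minus strand): gttgcgtgATCATTTTGTACGaaataagt
PRP8 (chrVIII:437124-437152, plus strand): aatttcatATCATTTAGTACGaatagcta
YLL066C (chrXII:11808-11836, plus strand): gcactcgcATCATTATGCACGgcacttgc
GCN2 (chrIV:1030369-1030397, minus strand): atcccaacATCACTTTACACGaaagcctt
FCF1 (chrIV:1150631-1150659, minus strand): ctaaaggtATCATTATGAACGgctaaaat
IQG1 (chrXVI:95311-95339, plus strand): atgcttaaATCACTATATACGaaataaac
RAD23 (chrV:82895-82923, minus strand): ttatatcaATCACTATACACGgctcggtg
MSN1 (chrXV:99571-99599, minus strand): gaaaaagcATCACTATAAACGaaatcttc
RPC17 (chrX:415880-415908, plus strand): aagagagaATCACCATGAACGatatggtg
QCR9 (chrVII:859678-859706, minus strand): taatatgtATCATTATACACGacccaatc
CNB1 (chrXI:82764-82792, minus strand): tccacgcgGTCACTTCGCACGgaatgtat

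All 12 motifs hold the bipartite core, TC and, after 7 bases, ACG. Position −8 is G or C in 8 of the 12 and A or T in the sites of RPS28B, PRP8, GCN2 and IQG1, and position −1 is T in 11 of the 12. The exception at −1 is RPC17, with C.

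The signal of a peak is its fold enrichment, which divides the fragments that cover the summit by the number that the inputs predict there. The 269 values ran from 2.00 to 60.7, and the median tandem peak had 5.74 (4.65 to 7.68), with quartiles of 2.84 and 15.9. The pileup behind these values was 258 to 8240 fragments over a background of 125 to 175, which gives a counting error of 6.23% at the weakest summit and 1.10% at the strongest. The line of 4 that the study set for strong peaks was met by 165 peaks (61.3%, 55.4 to 67.0), while 96 had at least 10, 51 at least 20 and 21 at least 30. Tandem peaks made up 165 of the 421 peaks (39.2%) of this strength in the whole list and 37 of the 100 highest. Peaks between divergent genes were similar in signal, with a median of 5.28 (4.45 to 6.61) and 60.4% at 4 or more. The difference of the medians, 0.468 in favour of tandem peaks, turned to −0.397 among peaks of at least 4. The medians of peaks between convergent genes (2.64), inside ORFs (3.15) and inside tRNA genes (2.95) were lower.

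**Figure D1:**
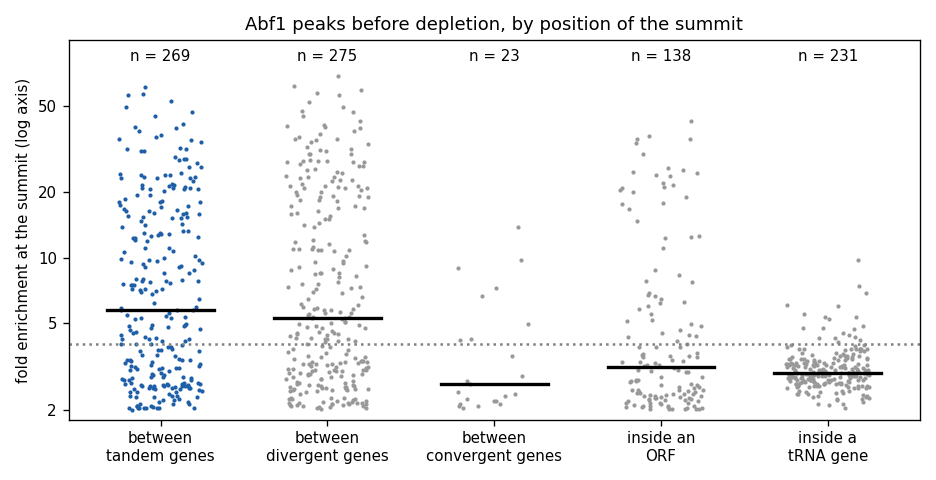
Fold enrichment at the summit (log axis) of each Abf1 peak before depletion, grouped by the position of the summit. Each point is 1 peak, black bars are medians and the dotted line marks a fold enrichment of 4. Tandem (median 5.74) and divergent peaks (median 5.28) span a similar range, and no peak inside a tRNA gene reached 10.

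The strongest tandem peak lay between PRP21, which encodes a splicing factor, and ECM25. Its summit at position 54248 of chromosome X was 131 bp upstream of the ECM25 start codon and 65 bp past the PRP21 stop codon, in a gap of 195 bp, with a fold enrichment of 60.7 (59.4 to 62.0) from 8240 fragments. RPS28B, which encodes a protein of the small ribosomal subunit, followed with 56.4 (55.1 to 57.6), 177 bp from its start codon and 131 bp past RED1. The peak of PRP8, the central protein of the spliceosome, reached 55.8 (54.6 to 57.0) only 32 bp past the stop codon of CDC23. The intervals of RPS28B and PRP8 overlap, and that of ECM25 lies above both.

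The fourth, with 52.3 (51.1 to 53.5), lay near a chromosome end between PAU18 and YLL066C, a gene for a Y′ element helicase, and was the tandem peak farthest from a start codon (1994 bp). GCN2, the kinase that senses amino acid starvation, had 49.1 (47.9 to 50.2) at 343 bp from its start codon and 158 bp past DPP1. FCF1, a factor for processing of ribosomal RNA, had 46.7 (45.6 to 47.9) in a gap of 1282 bp behind YDR341C, the arginine tRNA ligase gene, with its summit 157 bp from the start codon. In that gap a tRNA gene lies 165 bp from the summit.

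IQG1, needed for cytokinesis, had 44.8 behind CIN2. RAD23, a nucleotide excision repair factor, had 41.4 behind ANP1, and MSN1, a transcription factor, had 39.8 behind RRI2. RPC17, a subunit of RNA polymerase III, had 39.5 in a gap of 2791 bp behind NOP9, at 1134 bp from its start codon and 27 bp from a tRNA gene. QCR9, a subunit of the respiratory complex III, had 38.2 behind UBR1, and CNB1, the regulatory subunit of calcineurin, had 36.6 behind DPH2. The 10 summits other than those of YLL066C and RPC17 were 131 to 343 bp from the downstream start codon.

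The summit was at a median of 229 bp (210 to 249) from the downstream start codon, with quartiles of 160 and 388 bp, and at a median of 183 bp (157 to 214) from the upstream stop codon, with quartiles of 106 and 391 bp. It was nearer to the start codon than to the stop codon in 106 of 269 peaks (39.4%, 33.8 to 45.4). On a scale from the stop codon (0) to the start codon (100), the median summit was at 45.1 (40.3 to 47.6), with quartiles of 26.7 and 60.1. In the divergent class the nearer of the start codons was at a median of 194 bp (177 to 220).

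The distances to the start codon were concentrated in 1 stretch. Between 101 and 200 bp from the start codon lay 101 peaks (37.5%), of which 72 (71.3%) had at least 4 and 100 held an Abf1 motif. Only 10 peaks lay within 100 bp, 65 between 201 and 300 bp, 31 between 301 and 400 bp, 26 between 401 and 600 bp and 36 farther away. The median fold enrichment was 3.58 (2.31 to 20.3) within 100 bp, 9.09 (5.74 to 12.9) at 101 to 200 bp and 4.79 (3.25 to 5.77) at 201 to 300 bp. It was 7.50 (4.24 to 15.8) at 301 to 400 bp, 4.61 (2.84 to 13.2) at 401 to 600 bp and 3.06 (2.57 to 11.1) beyond 600 bp. The medians were not in order of distance, but these intervals overlap, so the shape of the relation stays undetermined. Spearman's rho between distance and fold enrichment was −0.15 over the 269 peaks, which share libraries and a background.

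The stop codon showed no such sparse stretch. Within 100 bp of the stop codon lay 64 peaks (23.8%, 19.1 to 29.2), with a median fold enrichment of 7.66 (4.02 to 11.1), and 60 of them held a motif. Among the peaks at a fold enrichment of 4 or more, the one nearest a start codon was that of HST1, a histone deacetylase of the Sir2 family. It had 20.3 at 57 bp from the start codon, in a gap of only 105 bp behind RTG1. The one nearest a stop codon was that of AEP1, needed to express a mitochondrial gene for a subunit of the ATP synthase, with 19.4 at 5 bp past the RIM9 stop codon and 102 bp from the AEP1 start codon.

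**Figure D2:**
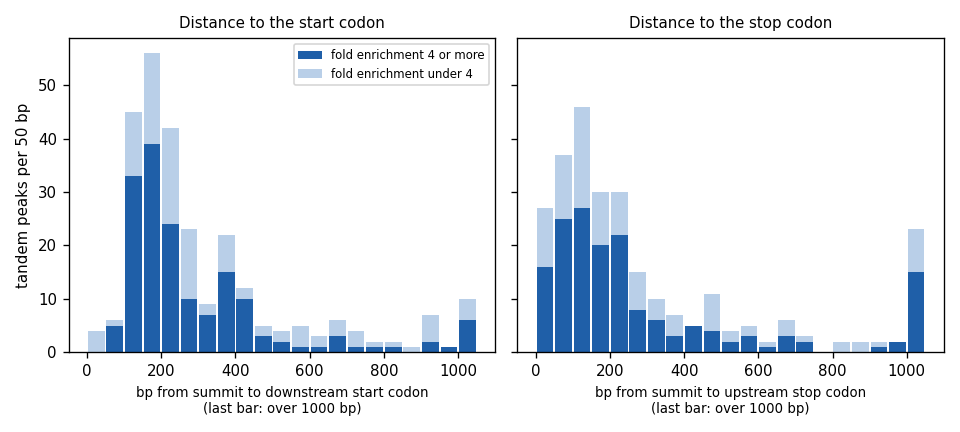
Number of tandem peaks per 50 bp of distance from the summit to the downstream start codon (left) and the upstream stop codon (right), with peaks of fold enrichment 4 or more in dark blue and weaker ones in light blue. The first 100 bp hold 10 peaks on the start codon side and 64 on the stop codon side.

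The 269 peaks lay in 263 gaps, out of 2845 tandem gaps (9.24%). Gaps with a peak had a median length of 467 bp (419 to 511), those without one 398 bp (386 to 410). Since peak intervals were long (median 632 bp) next to these gaps, 42 intervals (15.6%) lay wholly outside ORFs and tRNA genes, and in the others the interval, but not the summit, reached into a gene. Selecting intervals wholly outside genes keeps short intervals in long gaps by its construction, so larger distances from both ends follow from the selection. The medians of the 42 were 411.5 bp from the start codon and 540 bp from the stop codon, and 52.4% of them were nearer to the start codon. Their median fold enrichment was 2.98.

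In 5 gaps more than 1 summit was called. The gap between ADE16 and AAT2, an aspartate transaminase gene, held 3, with fold enrichments of 33.9, 2.63 and 2.53 at 171, 875 and 1283 bp from the AAT2 start codon. The first had 2 motifs, and the other 2 had none and lay inside an annotated noncoding RNA gene. Upstream of RPS22B, for a protein of the small ribosomal subunit, the summits had 31.1 and 2.44 at 727 and 10 bp from the start codon. Upstream of SBP1 they had 5.74 and 2.31 at 222 and 651 bp. In these 3 gaps 1 summit thus had most of the signal. The remaining 2 gaps, those of RPA34 and PPH21, held only summits under a fold enrichment of 4.

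An Abf1 motif, at 85% or more of the score range of a 15-position matrix and with its midpoint within 100 bp of the summit, was present in 243 of 269 peaks (90.3%, 86.2 to 93.3). The matrix was built from peaks that are not tandem. The share was 98.2% (162 of 165) among the strong peaks and 77.9% (81 of 104) among the weaker ones. The same search at the midpoints of tandem gaps without a peak found a motif in 13.6% (330 of 2431), and in 11.02% of windows tiled along the chromosomes. The exact consensus was found in 83.3% of tandem peaks against 5.92% of the gap midpoints. The median distance of the best motif from the summit was 10 bp (8 to 11), and in 202 of 243 peaks (83.1%, 77.9 to 87.3) it was within 20 bp. In divergent peaks 72.9% (67.0 to 78.0) were that close.

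Motifs pointed along and against the downstream gene about equally often. The motif was on the coding strand of the downstream gene (forward) in 120 of 243 peaks (49.4%, 43.2 to 55.6). At a fold enrichment of 4 or more the share was 49.4% as well (80 of 162). Forward motifs had a median fold enrichment of 6.34 (4.69 to 9.19) and reverse motifs 7.96 (5.43 to 9.99), with overlapping intervals, and 66.7% of either kind had 4 or more. Of the motif-bearing peaks within 100 bp of a stop codon, 31 were forward and 29 reverse, and of those within 200 bp of a start codon 49 were forward and 60 reverse. The summit was nearer to the start codon in 33.3% (25.5 to 42.2) of the forward and 46.3% (37.8 to 55.1) of the reverse motifs.

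Direction did show in where the summit fell. Seen along the motif, from position −8 towards its ACG end, the summit lay before the motif midpoint in 172 of 243 peaks (70.8%, 64.8 to 76.1), after it in 62 and on it in 9, with a median of −7 bp (−9 to −5). The side was the same whichever way the motif pointed along the gene, with 79.2% (71.1 to 85.5) and a median of −9 bp for forward motifs and 62.6% (53.8 to 70.6) and −5 bp for reverse motifs. Relative to the gene, the summit was thus upstream of most forward motifs and downstream of most reverse motifs. With G or C at −8 the share was 78.6% (69.8 to 85.5), with A or T 65.0% (56.8 to 72.4), and the medians were −7 and −6 bp. Divergent peaks had the same median of −7 bp, with 70.0% (64.1 to 75.4) on that side.

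The base at −8, outside the published consensus, went with a difference in signal. Among the 243 motif-bearing tandem peaks, 103 (42.4%, 36.3 to 48.7) had G or C there and 140 had A or T. The median fold enrichment was 15.4 (12.6 to 18.6) with G or C and 4.02 (3.30 to 5.24) with A or T. It was 17.7 for G, 15.2 for C, 4.13 for A and 3.74 for T. Peaks of at least 4 made up 88.3% (80.7 to 93.2) of the former and 50.7% (42.5 to 58.9) of the latter, and 39 and 12 peaks had at least 20. These base classes were known from the whole list, of which the tandem peaks are a part, so the tandem peaks are not independent evidence for them. The paper, citing earlier work, states that cross-linking of Abf1 is efficient only where −8 is G or C. It excluded sites without G or C there and reports that low signals at some of them did not deplete over time. Cytosolic Abf1 that rebinds in the ChIP steps is given in the paper as their likely source, which was not tested here. Fold enrichments here and below are therefore not comparable as binding between the classes, and the part of cross-linking was not tested. Among the 42 peaks with an interval wholly outside genes, the medians of the classes differed by 1.07, against 11.4 over all motif-bearing tandem peaks. These 42 were weak (median 2.98), which leaves little room for a difference. A motif was present in 78.6% of them, with G or C at −8 in 18.2% of these, so the median for G or C rests on few peaks.

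The −8 classes and the motif score each went with the signal. Peaks with A or T at −8 had the higher scores (median 95.1% against 93.4% of the range). At scores of 95% or more the median fold enrichment was 27.3 (21.0 to 34.8) for 27 peaks with G or C and 7.52 (4.84 to 10.2) for 72 with A or T. At 90 to 95% it was 15.2 (9.76 to 17.1) for 61 and 3.14 (2.61 to 3.73) for 58 peaks, and at 85 to 90% it was 3.87 for 15 and 2.36 for 10. Within each class Spearman's rho between score and fold enrichment was 0.76 for G or C and 0.63 for A or T, against 0.37 for all 243 motifs together. These coefficients are descriptions across peaks of the same libraries.

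Position −1 went with a smaller difference. With T at −1 the median was 18.0 for peaks with G or C at −8 and 4.67 for those with A or T, and with another base at −1 it was 12.9 and 2.97. T at +1 was found in 72.5% of the 51 motif-bearing peaks of fold enrichment 20 or more and in 49.7% of the 147 under 10.

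**Figure D3:**
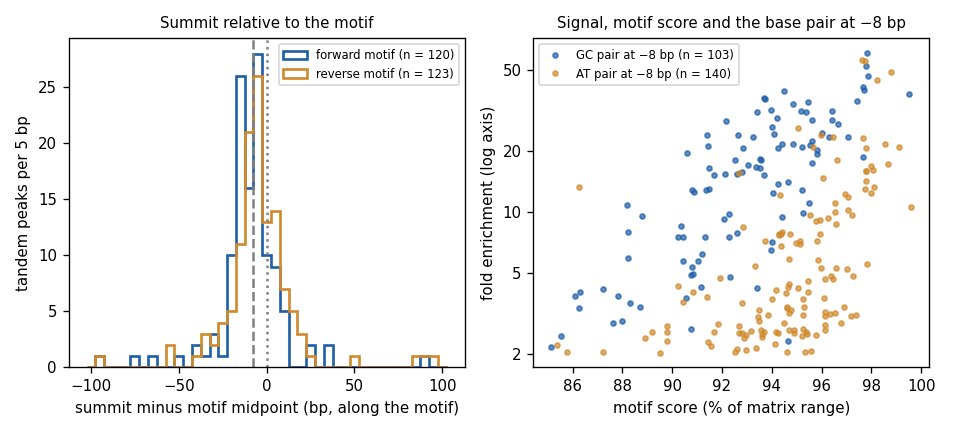
Left, distance from the motif midpoint to the summit along the motif in bp (dotted line 0, dashed line −8), for forward and reverse motifs, in bins of 5 bp. Right, fold enrichment (log axis) against motif score in % of the matrix range for each of the 243 motif-bearing tandem peaks, with a GC pair (blue) or an AT pair (orange) at −8 bp. Summits lie mostly to the left of 0 for both directions, and peaks with a GC pair lie mostly above those with an AT pair of like score.

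Of the peaks with A or T at −8, a class that the study excluded from its off-rates, 12 still had a fold enrichment of 20 or more. Whether their signal falls on depletion was not tested here. The 12 peaks lay upstream of RPS28B, PRP8, GCN2, IQG1, AHC2 (26.1), SLA1 (24.0), TOM6 (23.3), GPR1 (23.2), EDC1 (21.7), SIP1 (21.0), SEM1 (20.8) and YBL111C (20.6). All 12 had a motif score of 95% or more, and 11 had T at −1, the exception being GPR1 with C. Of all 140 peaks with A or T at −8, 72 had such a score and 100 had T at −1, which over all 243 motifs was found in 64.6%.

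Near chromosome ends, 9 tandem summits lay in annotated telomeric regions. Their median fold enrichment was 15.9 (7.96 to 20.6), all 9 held a motif, and in 8 it was reverse. The 29-base motifs of 7 of them are near-copies of that of YLL066C, printed above, and are shown because they differ from it at few positions.
YBL111C (chrII:6331-6359, plus strand): gcacccacATCATTATGCACGgcacttgc
YRF1-1 (chrIV:1524874-1524902, minus strand): gcactcacATCATTATACACGgcacttgc
YLR462W (chrXII:1064530-1064558, minus strand): gcactcacATCATTATGCACGgcacttgc
YHL049C (chrVIII:5228-5256, plus strand): gcacccacATCATTATGCACGgcacttgc
YPR202W (chrXVI:942616-942644, minus strand): gcactcacATCATTATGCACGgcacttgc
YRF1-7 (chrXVI:6946-6974, plus strand): gcactcacATCATTATTAACGgcacttgc
YHR218W (chrVIII:556354-556382, minus strand): gcactcacATCACCATTAACGgcacttgc

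The site of YLR462W differed from that of YLL066C by the single substitution G7A, with positions counted from 1 at the 5′ end of the printed sequence, so that position 7 is −8 of the motif. The fold enrichments were 52.3 (51.1 to 53.5) at YLL066C and 16.0 (15.4 to 16.7) at YLR462W. The site of YPR202W, which lies in the origin ARS1632, carried G7A alone as well and had 14.2 (13.6 to 14.9). YBL111C and YHL049C had T5C besides G7A, with 20.6 (19.8 to 21.4) and 15.9 (15.2 to 16.6). YRF1-1 had G7A and G17A with 16.1, and YRF1-7 had G7A, G17T and C18A with 11.1. YHR218W had these and T13C and T14C, with 7.96 (7.48 to 8.47). All 7 thus lacked the G at −8, and their fold enrichment was lower than at YLL066C by more than the counting error.

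Beyond the motif, a comparison base by base found a smaller share of matches. In 201 bp centred on the motif, and with no gaps allowed, YLR462W and YPR202W matched YLL066C at 69.7% and 67.7% of bases, and the other 5 at 68.2 to 76.6%. An insertion or deletion would shift the rest of the window, so these shares cannot show how far the flanks differ. YLL066C also had a second, weaker motif at 61 bp (score 87.1%), and YHR218W, with the lowest fold enrichment of the 7, had a second motif of the same score at the same distance. The other 6 had a single motif. Requiring unique mapping, as the authors did, can lower the signal in repeated sequence, and its part in these values was not tested. The ninth site, that of YEL075C, had an unrelated motif sequence (19 of 29 bases differed) and a fold enrichment of 2.21.

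More than 1 motif was found in 42 tandem peaks (17.3% of those with one, 13.0 to 22.5, against 25.5% of divergent peaks, 20.5 to 31.3), and none had more than 2. In 8 of the 42, both matches were the same site read on opposite strands, with midpoints 2 bp apart. In 30 the midpoints were over 15 bp apart, at a median of 52 bp. The median fold enrichment was 7.49 both with 1 motif (5.30 to 9.19) and with 2 (4.24 to 13.2). The highest with 2 motifs were YLL066C and AAT2.

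The promoter of DED1, an essential RNA helicase gene, was the only tandem peak with a fold enrichment of 20 or more in which separate motifs lay within 15 bp of each other on 1 strand, with midpoints 14 bp apart. Its summit was 167 bp from the DED1 start codon and 136 bp past the stop codon of HIS3, a histidine biosynthesis gene, and had 31.6 (30.6 to 32.6). The motifs, both with G at −8, are shown because they overlap in part.
DED1 best motif (chrXV:722734-722762, plus strand): ctatacgtGTCATTCTGAACGaggcgcgc
DED1 other motif (chrXV:722720-722748, plus strand): ggtaatgcATCATTCTATACGtgtcattc

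No motif was found in 26 tandem peaks, and these were weak. The lowest had 2.00, the median was 2.60 (2.29 to 2.81) and the highest had 5.40, and 3 of them had at least 4. The strongest were those of HSC82, with 5.40 (5.04 to 5.78), and SSA2, with 4.88 (4.52 to 5.26), genes for cytosolic chaperones of the HSP90 and HSP70 families. The third was that of YER137C, with 4.53, whose summit lay in a noncoding RNA gene. Of the 26, 6 had the summit in an annotated noncoding RNA gene other than a tRNA gene, 5 had a tRNA gene in the gap, and 6 had a cytosolic ribosomal protein gene as a neighbour on either side, compared with 19 of the 243 with a motif. At NUP192, TGL2 and YKR041W the summit was 1, 2 and 6 bp from a tRNA gene. Over all tandem peaks, 7 summits lay in such a noncoding RNA gene, with a median of 2.64, and 1 of these, at RPO41, had a motif.

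Sequences that other general regulatory factors bind were rare in the tandem peaks. All searches covered both strands within 100 bp of the summit, and a match is a match of letters only. The Rap1 core, read as CACCCA, any base and then ACA, was found in 7 peaks (2.60%, 1.27 to 5.27), all under a fold enrichment of 4, and in 0.740% of the midpoints of tandem gaps without a peak. Of these 7, 5 were among the 26 peaks without an Abf1 motif (19.2%, 8.51 to 37.9). They are shown with the core in capitals because no Abf1 motif was found beside them.
RPL35B (chrIV:217413-217436, plus strand): gattcagCACCCAAACAtttgaat
RPL7A (chrVII:366232-366255, minus strand): atataaaCACCCACACAtatctat
GPM2 (chrIV:413324-413347, minus strand): taaaataCACCCATACAtacggac
WHI2 (chrXV:410320-410343, minus strand): gaaaaaaCACCCAAACAcctctta
PSA1 (chrIV:358244-358267, minus strand): tacacacCACCCATACAttatctg

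These sites lay 0 to 29 bp from the summit. RPL35B and RPL7A encode proteins of the large ribosomal subunit, GPM2 is a homologue of phosphoglycerate mutase, WHI2 acts in the general stress response and PSA1 makes GDP-mannose for cell wall synthesis. Their fold enrichments were 3.25 (2.97 to 3.56) at RPL35B, 2.73 at RPL7A, 2.31 at GPM2, 2.29 at WHI2 and 2.22 at PSA1. The other 2 peaks with the core, those of SGV1 (2.75) and YEL075C (2.21), held an Abf1 motif too.

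The Reb1 core TTACCCG was found in 8 tandem peaks (2.97%, 1.51 to 5.76) and in 7.12% (6.16 to 8.21) of the gap midpoints. It was found in 1 of the 26 peaks without an Abf1 motif, that of HSC82, the strongest of them. The Cbf1 site CACGTG was found in 2 tandem peaks (0.743%, 0.204 to 2.67), those of RPN4 and YDR042C, in 2.92% of the gap midpoints and in 28 divergent peaks (10.2%, 7.14 to 14.3). The TATA element TATAAA was about as frequent in tandem peaks (36.1%, 30.6 to 42.0) as at the gap midpoints (37.1%). The PAC element GCGATGAG, known from genes for ribosome biogenesis, was found in 8 tandem peaks (2.97%) and 2.34% of the gap midpoints. Those 8 lay upstream of UTP13, BCP1, DBP2, NOG2, URB1, RRP8, RIO2 and CCT5.

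By the role of the downstream gene, the chaperones of the HSP90, HSP70 and HSP60 families and their cochaperones had the highest share with a tandem peak. Of the 27 such genes that lie behind a tandem gap, 12 had a peak (44.4%, 27.6 to 62.7), against 9.24% (8.23 to 10.4) of all genes behind a tandem gap, and 8 had one of fold enrichment 4 or more (29.6% against 5.80%). The highest were STI1 with 29.0 (28.1 to 29.9) and CCT3 with 23.4 (22.6 to 24.2), followed by SSZ1 with 16.5 and FES1 with 9.99. STI1 links HSP70 and HSP90, CCT3 is a subunit of the cytosolic chaperonin, SSZ1 is part of the ribosome-associated complex and FES1 is a nucleotide exchange factor. The other 8 were SSB2 (7.08), HSC82, SSA2, CCT7 (4.84), CCT8 (3.75), SSB1 (3.73), CCT5 (2.63) and SSE2 (2.03). The high share was not confined to tandem gaps. Among chaperone genes beside a divergent gap, 8 of 16 had a peak there, against 528 of 3079 of all such genes.

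Genes for ribosome biogenesis came next among the larger lists, with 16 of 64 (25%, 16.0 to 36.8), 12 of them at 4 or more (18.8%, 11.1 to 30.0). The highest were SOF1 (27.3), UTP13 (24.4), SSF2 (23.3) and UTP18 (21.1), which encode factors for the assembly of the small subunit or, for SSF2, the large subunit. Their summits were 115, 118, 170 and 141 bp from the start codon. The weakest of the 16 were DHR2 and RIO2 (3.30 each) and NOP12 (2.45). Beside a divergent gap, 17 of 57 ribosome biogenesis genes had a peak there, against 528 of 3079 of all such genes, so this share too was not particular to tandem gaps.

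Genes for cytosolic ribosomal proteins had a tandem peak in 10 of 60 cases (16.7%, 9.31 to 28.0), and one of at least 4 in 3 (5%, 1.71 to 13.7), against 5.80% of all genes behind a tandem gap. RPS28B (56.4) and RPS22B (31.1) were far above the rest, RPL4A had 5.89 (5.48 to 6.33), and RPL35B and RPS21A had 3.25 and 3.22. Mitochondrial ribosomal protein genes had 4 of 29 (13.8%), of which MRPS9 had 13.0 and MRP49, RSM27 and IMG2 had 2.61, 2.13 and 2.03. The interval of the second list holds the share of all genes, and that of the first begins just above it. The first count includes 4 genes whose peak had no Abf1 motif. These were RPL35B, RPL7A (2.73), RPP1B (2.66) and RPL12B (2.12).

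The subunits of RNA polymerases had 3 of 10 (30.0%, 10.8 to 60.3), with RPC17 (39.5) and RPB8, a subunit shared by all the nuclear RNA polymerases (31.0), and with RPA34 (2.64 and 2.62). Both summits of RPA34 had no motif and lay in an annotated noncoding RNA gene, at 805 and 596 bp from the start codon. The summit of RPC17 was 1134 bp from its start codon, and that of RPB8 was at 146 bp. The counts set no limit on this distance. Of the 10 genes, 2 had a peak of at least 4 (20%, 5.67 to 51.0), and that interval holds the 5.80% of all genes. Among polymerase subunit genes beside a divergent gap, 12 of 21 had a peak there. The proteasome had 3 of 13 (23.1%, 8.18 to 50.3), with RPN4, the transcription factor for proteasome genes (21.0), SEM1 (20.8) and RPN1 (9.70). The SEC list of the secretory pathway had 5 of 24 (20.8%, 9.24 to 40.5), led by SEC21, a coat protein of COPI vesicles (31.9), SEC72 (9.19), SEC18 (7.88) and COP1 (7.50). Pre-mRNA splicing had 5 of 33 (15.2%, 6.65 to 30.9), with PRP8 (55.8) and CLF1 (15.3), whose summit lay in the origin ARS1214, and then STO1 (3.09) and AAR2 (2.29). Amino acid biosynthesis had 5 of 45 (11.1%, 4.84 to 23.5), with AAT2 (33.9), THR4 (15.2), GLN1 (12.8) and LEU9 (9.76). The intervals of the proteasome, splicing and amino acid lists hold the 9.24% of all genes, and the share of the last was close to it. Counting only peaks of at least 4, the proteasome had 3 of 13 (8.18 to 50.3) and the SEC list 4 of 24 (6.68 to 35.9). These 2 intervals lie above the 5.80% of all genes but rest on few genes. Those of splicing (1.68 to 19.6) and amino acid biosynthesis (3.51 to 20.7) hold it.

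Other lists held few tandem peaks. Respiration and the TCA cycle had 2 of 37 (5.41%, 1.50 to 17.7), QCR9 (38.2) and NDE1 (2.09). Initiation factors of RNA polymerase II and Mediator had 1 of 18, TAF4 (4.43). Aminoacyl-tRNA synthetases had 0 of 11 and the general regulatory factors 0 of 5. With so few genes in a list, the intervals of these shares were wide.

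**Figure D4:**
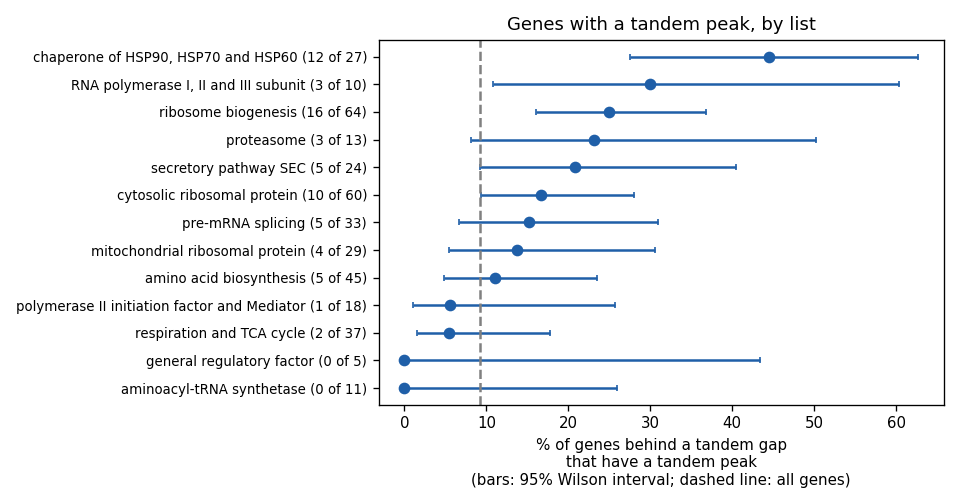
Share of genes with a tandem peak among the genes of each list that lie behind a tandem gap, with 95% Wilson intervals. The dashed line is the share of all genes behind a tandem gap, 9.24%. The intervals of the chaperones (27.6 to 62.7%), of ribosome biogenesis (16.0 to 36.8%) and of the RNA polymerase subunits (10.8 to 60.3%) lie above the line, and those of the cytosolic ribosomal proteins and the SEC list begin at it. Peaks of any fold enrichment are counted, with or without a motif and at any distance from the start codon. For polymerase subunits with a peak of at least 4, the interval (5.67 to 51.0%) holds the 5.80% of all genes.

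Around the fold enrichment of 4 that separates strong from weak peaks, the signal was continuous. The weakest peak above it was that of CHS5, with 4.02 (3.70 to 4.36), 167 bp from its start codon behind REC102. The next below was that of ERV25, with 3.98 (3.68 to 4.31), 15 bp past the UBX2 stop codon. Their intervals overlap almost wholly. The weakest of all was that of APJ1, with 2.00 (1.79 to 2.23) and no motif, behind NIS1.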

How the data were processed

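The authors aligned paired-end ChIP-seq reads to sacCer3 with HISAT2 2.0.5, removed duplicates by molecular identifiers, kept reads that mapped uniquely, and ran MACS2 2.1.1.20160309 on 3 immunoprecipitations against 3 inputs, requiring at least 2-fold enrichment and a q-value under 0.001. The deposited fold enrichment is a ratio of pileup to background, each with 1 added. The deposited −log10 p and −log10 q served to solve the pileup, which was whole within 0.01 for 941 of 948 peaks, and as a filter. The deposited score was not used. Other time points and the untagged strain were not analysed here.

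Genes came from the S288C R64 (sacCer3) annotation, with 6002 ORFs from start to stop codon. The motif matrix (log2 odds, pseudocount 0.8) came from 241 matches to the published consensus with at most 1 mismatch, in peaks of fold enrichment 4 or more that are not tandem. Genes were named by rule: both neighbours of the 12 highest peaks, up to 4 highest members of each list, extremes of distance, the highest peaks without and with the most motifs, gaps with several peaks, and the members beside the threshold and the weakest. A gene that this rule takes is not reported here. Other names were chosen after their values were seen, as were the base-by-base comparison of telomeric sites and the position of the summit along the motif. The members and lists were chosen with earlier results of these data known. The functions were tested on simulated data. Scripts ran in Python 3.11.15 with scipy 1.17.1, numpy 2.4.6, pandas 2.3.3 and, for figures, matplotlib 3.10.9.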

Additional observations from a re-analysis of the deposited data

How the results depend on the processing

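No paired analysis was possible because the authors combined the replicates for peak calling. Of 96 combinations of 12 results and 11 alternatives, 81 stayed within the interval of the reported value (a count within 1.5 times) and 15 moved. The median of tandem minus divergent peaks, 0.468, changed sign within its interval, to −0.397 with only peaks of fold enrichment 4 or more and to −0.067 with whole intervals outside genes. With only peaks of fold enrichment 4 or more, 165 peaks remained, with a median of 12.9, a motif in 98.2% and G or C at −8 in 56.2%. With the whole interval outside ORFs and tRNA genes, 42 peaks remained. Their fold enrichment was 4 or more in 38.1%, with a median of 2.98. They lay at medians of 411.5 bp from the start codon and 540 bp from the stop codon, and 52.4% were nearer to the start codon. A motif was present in 78.6%, with G or C at −8 in 18.2% of these. The medians with G or C and with A or T differed by 1.07, against 11.4 over all motif-bearing tandem peaks, but few peaks had G or C. This rule keeps short intervals in long gaps by its construction. The share with a motif was 81.0% at a threshold of 90% and 83.3% with the exact consensus. The remaining alternatives (the highest summit of each interval, no tRNA gene in the gap, no telomeric summit, −log10 q of at least 10, a threshold of 80%, a window of 50 bp, a matrix from all peaks) moved no result. The lowest −log10 q of a tandem peak was 22.9, so the q filter removed none of them. Its results, counted among the 81, could not move and say nothing about robustness. Depth limits little, since counting error was at most 6.23% of a pileup, but the spread between replicates was not measured here.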
